A study of Mus musculus with 6 samples.

Results

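The 10 genes described here encode chains of the fibrillar collagens in mouse: Col1a1, Col1a2, Col2a1, Col3a1, Col5a1, Col5a2, Col5a3, Col11a1, Col11a2 and Col27a1. They were chosen by name as members of the family, with earlier results of these data known, and all 10 were found among the 34745 genes of the deposited table. Col24a1, which is also classed as a fibrillar collagen, was not on the list of names.

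The series was made to look for genes behind fibrosis in aging skeletal muscle. RNA-seq was performed on NOR-10, an established line of mouse skeletal muscle fibroblasts, the cells that make most of the connective tissue matrix of muscle. The Con group was 3 libraries of cells given PBS, and the D-gal group was 3 libraries of cells given D-galactose, a sugar used to induce cellular senescence, at 20 mg/mL for 3 days according to the methods. Both groups were grown in the same serum-containing medium, and no gene was altered in either. All 6 libraries came from 1 cell line, and nothing in the labels says whether they came from separate cultures, so p-values measure only the spread between these libraries, which may be technical.

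A fibrillar collagen is made as procollagen chains that wind in groups into a triple helix, cut and crosslinked outside the cell, and packed side by side into banded fibrils. The helix is built from a repeated Gly-X-Y triplet, in which glycine is the residue small enough to lie inside. Col1a1 and Col1a2 encode the chains of type I collagen, the main fibril of skin, tendon, bone and muscle connective tissue. Col3a1 encodes type III collagen, which lies with type I in stretchable tissue. The type V chains (Col5a1, Col5a2 and Col5a3) start fibrils and limit their width, and the type XI chains (Col11a1 and Col11a2) do the same beside the type II chain (Col2a1) in cartilage. Col27a1 encodes type XXVII collagen, known mainly from developing cartilage, and its helix is shorter and interrupted.

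The genes share a plan that can be read in their exons. In the reference annotation (GENCODE release M21, GRCm38), between 42.86% (Col1a1) and 55.93% (Col27a1) of the inner coding exons of a member were exactly 54 bases long, against 0.726% of the 157448 inner coding exons of 21951 protein-coding genes. Of these exons, all but 1 in Col1a2 and 1 in Col27a1 held 6 codon triplets that each began with a glycine codon. For the type I chains, the members with the largest fall and rise (Col3a1 and Col27a1) and Col5a2, the 54-base exon with 6 glycine triplets nearest the start of the coding sequence is shown 5′ to 3′ on the coding strand, with the glycine codons in capitals. These are coding exons, exon 8 of 51 in Col1a1 (chr11:94939904-94939957, plus strand), exon 8 of 52 in Col1a2 (chr6:4515481-4515534, plus strand), exon 6 of 51 in Col3a1 (chr1:45325360-45325413, plus strand), exon 6 of 54 in Col5a2 (chr1:45434892-45434945, minus strand) and exon 4 of 61 in Col27a1 (chr4:63231792-63231845, plus strand).
Col1a1: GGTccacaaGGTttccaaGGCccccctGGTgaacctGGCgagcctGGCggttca
Col1a2: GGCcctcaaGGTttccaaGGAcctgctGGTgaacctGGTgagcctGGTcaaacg
Col3a1: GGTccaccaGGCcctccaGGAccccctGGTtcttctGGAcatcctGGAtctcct
Col5a2: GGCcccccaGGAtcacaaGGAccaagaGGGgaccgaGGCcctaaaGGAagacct
Col27a1: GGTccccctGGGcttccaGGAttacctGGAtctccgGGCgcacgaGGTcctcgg

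The longest run of codon triplets that each began with a glycine codon was 337 to 344 triplets in 9 members and 217 in Col27a1. Col27a1 thus had the most exons of 54 bases (33) but the shortest uninterrupted run, which took up 35.3% of its codons against 55.2% to 74.1% in the others. Coding GC content ran from 53.3% (Col11a1) to 64.2% (Col11a2).

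The members lie on 9 chromosomes, and only Col3a1 and Col5a2 are neighbours. Col3a1 (ENSMUSG00000026043) spans chr1:45311538-45349706 on the plus strand and Col5a2 (ENSMUSG00000026042) chr1:45374321-45503282 on the minus strand, so their 3′ ends face each other across 24614 bp with no annotated gene between. Exons of Col3a1 overlap those of the microRNA gene Gm47302 on the same strand, which has no row in the table. On the other strand, exons of Col5a1 overlap those of 2810430I11Rik, with 71 to 105 counts per library, and of Gm13372, at 0 in every library. Whether the counting used strand is not given in the sources used here, so reads of Col5a1 and 2810430I11Rik cannot be told apart, although the largest count of 2810430I11Rik is small beside the 9408 to 15134 counts of Col5a1.

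Every library was read to between 13759108 and 20830349 counts, with 16876087 or more in Con and 15157064 or fewer in D-gal. The mitochondrial share was 4.257% to 4.441% in Con and 4.867% to 4.98% in D-gal, and its part in the results was not tested. Of the fibroblast markers, Pdgfra, Pdgfrb, Thy1, Vim and Ddr2 were abundant in all 6 libraries (at least 2327 counts, for Thy1), whereas Tcf21 was at 0 and Lum had 1 read in 1 library. At an adjusted p under 0.05 (edgeR, as below), 1 of the 8 tested fibroblast markers rose in D-gal and 4 fell. Of all genes tested, 16.9% were higher and 17.8% lower at that threshold. The summed level of the list was 3690 to 3800 CPM (library counts scaled to a common total) in Con and 3030 to 3180 in D-gal. Con replicate 1 stood apart in macrophage and leukocyte markers: Lyz2, the lysozyme of macrophages, had 627 counts there, against 114 and 86 in the other Con libraries and 46 to 70 in D-gal. The summed list reached 49.4 CPM in that library and 9.21 in the lowest Con library, against 8.54 to 8.96 in D-gal. For the members, calls that changed without Con replicate 1 are given with both values. Genes of the lists and markers are given with all 6 libraries only.

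All 10 members passed the filter on low counts, and every one differed between the groups at a p-value under 0.05 (edgeR, quasi-likelihood F test) after Benjamini-Hochberg adjustment over the 13407 genes tested. Type I, type II and type III chains fell, together with the type V chains Col5a1 and Col5a3, whereas Col5a2, Col11a1, Col11a2 and Col27a1 rose. Over all genes tested, 34.8% passed this threshold, 16.9% higher and 17.8% lower in D-gal, so 4 members higher and 6 lower stood against a large background. With a log2 fold change of at least 1 as a further criterion, the one the study set, Col3a1 (lower) and Col27a1 (higher) were differentially expressed, 2 of 10 against 4.21% of all genes tested. Groups did not overlap for any member, and they did not overlap for 49.1% of all genes tested. Without Con replicate 1, 3 members were higher and 5 lower at the adjusted p. In that fit 3711 of all genes passed, against 4661 with every library. The same 2 members passed the fold criterion (Col3a1 at -1.21 and Col27a1 at 1.13). The median log2 fold change was -0.21 over the members and 0.0036 over all genes tested.

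Col1a1 (ENSMUSG00000001506, chr11:94936224-94953042) was the most abundant member, and its normalised read counts were 39187, 38484 and 40244 in Con and 24646, 23151 and 24397 in D-gal. Every D-gal library lay well below every Con library. It fell by 38.8% (log2 fold change -0.71, SE 0.031, adjusted p = 5.95e-06). Col1a2 (ENSMUSG00000029661, chr6:4504814-4541544), its partner in type I collagen, had 34745, 36809 and 36181 normalised counts in Con and 18717, 17240.3 and 19024 in D-gal. This chain fell by 49.0% (log2 fold change -0.97, SE 0.041, adjusted p = 4.78e-06). In bulk RNA such as this, fewer cells making a transcript and less transcript per cell cannot be told apart. These values are of mRNA only. By Western blot, the study reported more type I collagen protein in NOR-10 cells after D-gal, and how mRNA and protein relate here was not tested.

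Col3a1 showed the largest fall in the family. Its normalised counts were 2055, 2155 and 2234 in Con and 971, 918 and 964 in D-gal, with a narrow spread in both groups. Col3a1 fell by 55.7% (log2 fold change -1.18, SE 0.047, adjusted p = 3.88e-06), and 1.42% of all genes tested had a lower log2 fold change. Col5a2, its neighbour on chromosome 1, moved the opposite way. Its normalised counts were 17235, 17521.5 and 17445.5 in Con and 20031, 19303 and 19014 in D-gal, a rise of 11.8% (log2 fold change 0.16, SE 0.028, adjusted p = 0.00298). Of the 4 most abundant members, Col5a2 was the only one that rose, and the size of its change was small beside that of Col3a1.

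Col5a1 (ENSMUSG00000026837, chr2:27886425-28039514), the type V chain found in nearly all type V molecules, had 11907, 12349 and 12230.5 normalised counts in Con and 11343, 11504 and 11336 in D-gal. The groups were separate but close, and the difference was -6.31% (log2 fold change -0.094, SE 0.027, adjusted p = 0.0274). This call was lost under 9 of 15 alternatives. Among these, the adjusted p was 0.0854 without Con replicate 2, 0.0775 without Con replicate 3, 0.0578 without D-gal replicate 1, 0.0529 without D-gal replicate 2 and 0.0812 without D-gal replicate 3, with the replicate number as a block it was 0.0511, and on the log2(FPKM + 1) scale, where the difference was -0.059, it was 0.126.

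Col5a3 (ENSMUSG00000004098, chr9:20770050-20815067), the rarer type V chain, had 434, 395 and 385 normalised counts in Con and 293, 302.5 and 371 in D-gal. D-gal replicate 3 lay just under the lowest Con library. The difference was -20.5% (log2 fold change -0.33, SE 0.11, adjusted p = 0.0424), and the call was lost under 10 of 15 alternatives. The adjusted p was 0.129 without Con replicate 1, 0.0827 without Con replicate 2, 0.0622 without Con replicate 3, 0.121 without D-gal replicate 1, 0.123 without D-gal replicate 2 and 0.0738 with the replicate block.

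**Figure D1:**
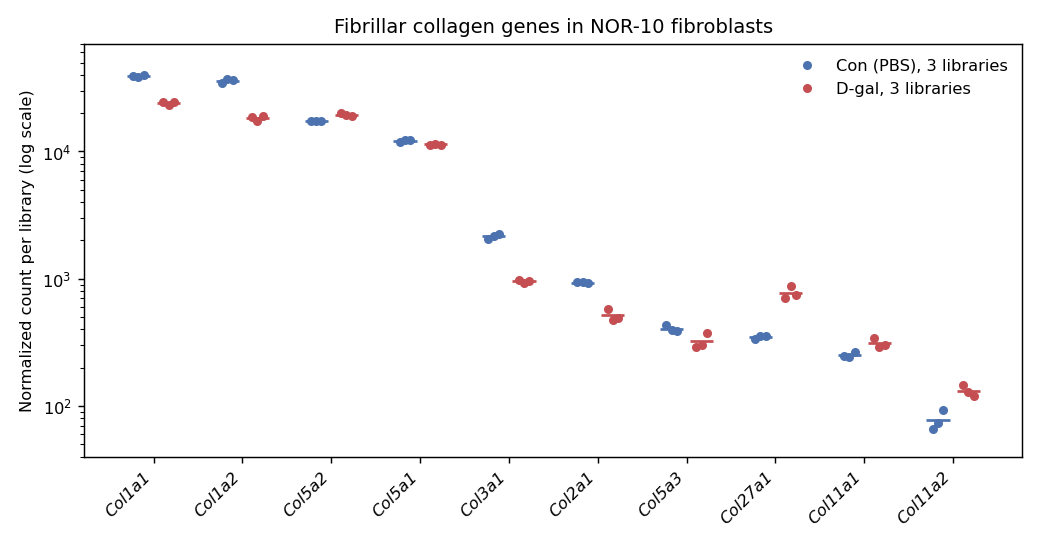
Normalised read counts of the 10 fibrillar collagen genes on a log axis, with each point 1 library (3 Con in blue, 3 D-gal in red) and each bar the group mean. Col1a1, Col1a2, Col3a1 and Col2a1 sit lower in D-gal and Col27a1 and Col11a2 higher, while the Col5a1 and Col5a2 points of both groups nearly meet.

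The members best known from cartilage did not move together. Col2a1 (ENSMUSG00000022483, chr15:97975602-98004695), the main chain of cartilage fibrils, had 934, 938 and 925 normalised counts in Con and 575, 473 and 495 in D-gal. The Con libraries lay close together (coefficient of variation 0.695%) and the D-gal libraries further apart (10.4%), with all of the latter lower. Col2a1 fell by 44.8% (log2 fold change -0.86, SE 0.076, adjusted p = 0.00012). Of the other cartilage markers in the table, Hapln1 was at 0 in every library, Acan, Epyc, Col9a1, Col9a2 and Matn1 had at most 4 reads, Comp at most 13 and Matn3 12 to 18. Col10a1, the collagen of hypertrophic cartilage, had 65 to 120 reads in each library (log2 fold change 0.17, SE 0.20, adjusted p = 0.542). Sox9, the transcription factor that drives cartilage genes including Col2a1, was counted at 1954 ± 73.4 in Con and 819 ± 28.7 in D-gal (SD, n = 3). Sox9 fell by 1.26 on the log2 scale (SE 0.048, adjusted p = 3.32e-06). The other members linked to cartilage, Col11a1, Col11a2 and Col27a1, rose (log2 fold change 0.31, 0.77 and 1.15). Any link between Sox9 and a member was not tested.

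Col11a1 (ENSMUSG00000027966, chr3:114030540-114220718) had 247.5, 243 and 266 normalised counts in Con and 343, 292 and 302 in D-gal. The rise was 24.0% (log2 fold change 0.31, SE 0.092, adjusted p = 0.0324). The call was lost under 8 of 15 alternatives, with an adjusted p of 0.0845 without Con replicate 1, 0.0912 without Con replicate 2, 0.0938 without D-gal replicate 1, 0.0581 without D-gal replicate 3, 0.0826 in DESeq2 and 0.056 with the replicate block. On the log2(FPKM + 1) scale, which shrinks the change of low genes, the rise was 0.19.

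Col11a2 (ENSMUSG00000024330, chr17:34039437-34066685), the lowest member, had 65.4, 73.4 and 92.9 normalised counts in Con and 145, 129 and 119 in D-gal. The lowest D-gal library was above the highest Con library. The rise was 70.3% (log2 fold change 0.77, SE 0.16, adjusted p = 0.0076), and 0.35 on the log2(FPKM + 1) scale.

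Col27a1 (ENSMUSG00000045672, chr4:63214004-63334991) rose most in the family. Its normalised counts were 338, 356 and 352 in Con and 707, 875 and 743.5 in D-gal. All 3 D-gal libraries lay far above Con, with D-gal replicate 2 the highest. The level was 2.22 times that of Con (log2 fold change 1.15, SE 0.088, adjusted p = 6.04e-05), and 98.0% of all genes tested had a lower log2 fold change. On the log2(FPKM + 1) scale the rise was 0.76, below the fold criterion.

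**Figure D2:**
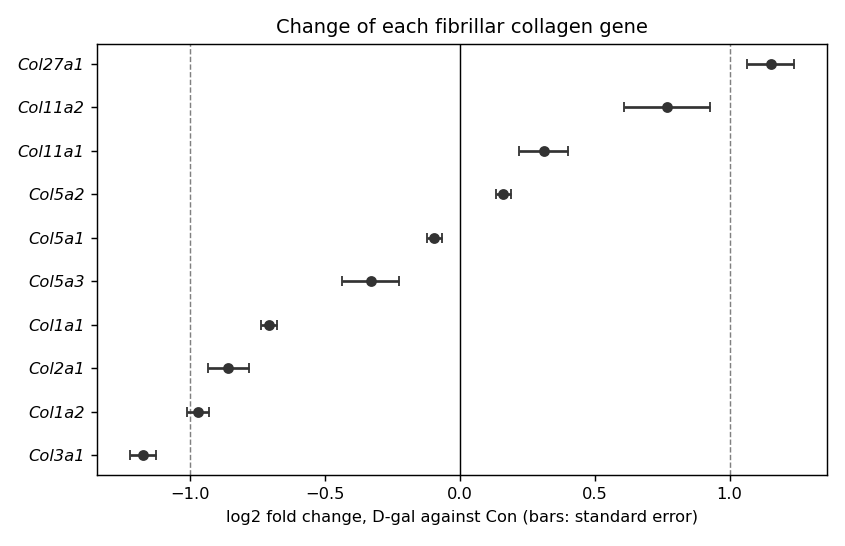
Log2 fold change of each member in D-gal against Con from edgeR, with bars of 1 standard error and dashed lines at the fold criterion of 1 in either direction. Col27a1 at 1.15 and Col3a1 at -1.18 lie beyond the lines, Col1a2 at -0.97 lies just inside, and Col5a1 at -0.094 is nearest to 0.

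The promoters of the 2 members past the fold criterion are shown, since these genes mark both ends of the family's range of change. RefSeq promoter sequences (GRCm38.p6) were at hand for 7 of the 10 members, and Col1a1, Col2a1 and Col5a2 had no entry. The 250 bases before the start are printed 5′ to 3′ on the gene's strand, for Col3a1 from chr1:45311288-45311537 (plus strand) and for Col27a1 from chr4:63215162-63215411 (plus strand). Capitals mark any match to 4 motifs searched on both strands, namely the CCAAT box, the GC box written as GGGCGG, the TATA box written as TATAAA and the AP-1 site written as TGANTCA.
Col3a1: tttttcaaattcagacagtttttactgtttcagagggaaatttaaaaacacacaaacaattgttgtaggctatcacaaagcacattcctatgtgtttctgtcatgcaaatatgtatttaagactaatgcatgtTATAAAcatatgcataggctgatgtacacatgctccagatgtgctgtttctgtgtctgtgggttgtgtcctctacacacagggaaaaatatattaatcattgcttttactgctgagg
Col27a1: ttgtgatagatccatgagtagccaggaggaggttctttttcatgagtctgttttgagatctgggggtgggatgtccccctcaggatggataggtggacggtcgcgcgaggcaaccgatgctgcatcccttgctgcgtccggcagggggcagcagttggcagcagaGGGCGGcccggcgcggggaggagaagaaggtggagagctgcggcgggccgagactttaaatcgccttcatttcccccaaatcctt

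The Col3a1 window held TATAAA at -117 from the start and had a GC content of 35.2%, the lowest of the 7 windows. The Col27a1 window held GGGCGG at -85 and had a GC content of 59.6%, with a median of 52.4% over all 32851 promoter windows of the same length. GGGCGG was also in the windows of Col1a2, Col5a1, Col5a3, Col11a1 and Col11a2, TATAAA in that of Col11a2, CCAAT in those of Col1a2, Col5a3 and Col11a1, and TGANTCA in none of the 7. Over all windows, CCAAT was in 33.8%, GGGCGG in 32.7%, TATAAA in 12.4% and TGANTCA in 6.75%. Members that rose (Col11a1, Col11a2 and Col27a1) and members that fell (Col1a2, Col5a1 and Col5a3) both held GGGCGG. The RefSeq start lay 125 bp from the start of the main transcript in Col1a2, 334 bp in Col11a2 and 23 bp in Col27a1. In Col1a2 it was downstream, so part of that window, with CCAAT at -109, lay inside the main transcript. A match is a description of letters only, and these data hold no measurement of binding.

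Since chains are assembled together, the ratio of their counts was taken within each library, which needs no scaling between libraries. In all, 11 ratios were compared by exact permutation (two-sided), which with 3 libraries against 3 can give no p below 0.1, so none could pass 0.05. Groups did not overlap for 10 of the 11 ratios (p = 0.1, exact permutation test, adjusted p = 0.11 over the 11), 5 of them higher and 5 lower in D-gal. Every member was already separate by itself, as were 49.1% of all genes tested, so a ratio of a member that fell to one that rose had to separate. The ratios reuse the same genes and are not independent, and no share over other gene pairs was computed. As counts are not per length, only the change of a ratio is read here, not whether it is above or below 1.

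Within type I collagen, the count ratio of Col1a1 to Col1a2 was 1.13, 1.05 and 1.11 in Con and 1.32, 1.34 and 1.28 in D-gal, a log2 difference of 0.26, with more Col1a1 per Col1a2 in all 3 D-gal libraries. Within type V, Col5a1 to Col5a2 was 0.699 ± 0.00721 in Con and 0.586 ± 0.0172 in D-gal (SD, n = 3), a log2 difference of -0.25. The rarer type V chain gave no separation: Col5a3 to Col5a1 was 0.0333 ± 0.00274 in Con and 0.0283 ± 0.00386 in D-gal (SD, n = 3), and the groups overlapped (p = 0.3, exact permutation test). Col11a1 to Col5a1, chains that can take each other's place in mixed type V and XI molecules, was 0.0207 ± 0.00101 in Con and 0.0274 ± 0.00255 in D-gal (SD, n = 3). Within type XI, Col11a1 to Col11a2 was 3.32 ± 0.464 in Con and 2.39 ± 0.137 in D-gal (SD, n = 3), a log2 difference of -0.46.

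Other ratios compared collagen types. Col3a1 to Col1a1 was 0.0546 ± 0.00193 in Con and 0.0395 ± 0.00014 in D-gal (SD, n = 3), a log2 difference of -0.47. Type V chains stood higher against type I chains in D-gal: Col5a1 to Col1a1 was 0.31 ± 0.00982 in Con and 0.474 ± 0.02 in D-gal (SD, n = 3), a log2 difference of 0.61. Col5a2 to Col1a2 was 0.496, 0.476 and 0.482 in Con and 1.07, 1.12 and 0.999 in D-gal, 2.19 times higher. For the neighbours on chromosome 1, Col3a1 to Col5a2 was 0.119, 0.123 and 0.128 in Con and 0.0485, 0.0476 and 0.0507 in D-gal. Col2a1 to Col11a1, the type II and type XI chains that share cartilage fibrils, was 3.77, 3.86 and 3.48 in Con and 1.67, 1.62 and 1.64 in D-gal. The widest difference was that of Col27a1 to Col1a1, 0.00863, 0.00924 and 0.00876 in Con and 0.0287, 0.0378 and 0.0305 in D-gal, a log2 difference of 1.85.

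**Figure D3:**
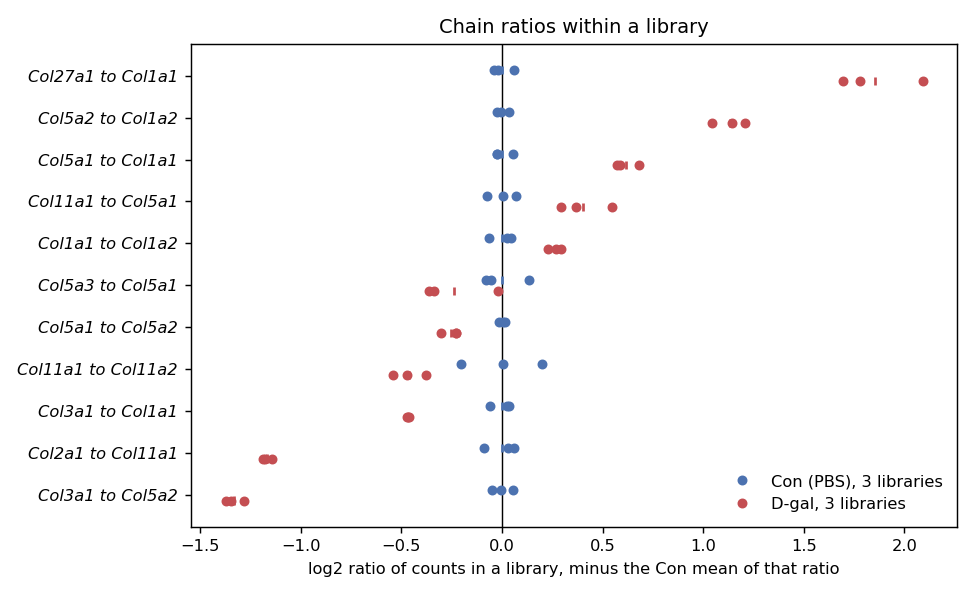
Log2 count ratio of chain pairs in each library minus the Con mean of that pair, with Con libraries in blue, D-gal libraries in red and ticks at the mean of each group. Groups are separate for every pair but Col5a3 to Col5a1, and the D-gal means run from -1.34 (Col3a1 to Col5a2) to 1.85 (Col27a1 to Col1a1).

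Levels of different genes were compared per kb of merged exons, in CPM per kb. In Con the order was Col1a1 (356.8 ± 8.04), Col1a2 (172.2 ± 5.07), Col5a2 (108.1 ± 0.921), Col5a1 (85.4 ± 1.60), Col3a1 (13.04 ± 0.545), Col2a1 (6.01 ± 0.0418), Col5a3 (3.54 ± 0.227), Col27a1 (1.60 ± 0.0429), Col11a1 (1.18 ± 0.0556) and Col11a2 (0.670 ± 0.123, SD, n = 3 each). The libraries of each neighbouring pair in this order were separate. In D-gal, Col5a2 (120.8 ± 3.26) stood above Col1a2 (87.9 ± 4.57), and Col27a1 (3.55 ± 0.404) lay beside Col2a1 (3.32 ± 0.345) and Col5a3 (2.82 ± 0.373, SD, n = 3 each). The libraries of Col27a1 and Col2a1, and of Col2a1 and Col5a3, overlapped in D-gal, so these places in the order could not be told apart.

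Several places in the order rest on the length used. The level of Col1a1 in Con was 2.07 times that of Col1a2 per kb of merged exons, 2.56 times in the deposited FPKM values, and 0.988 times per kb of the main coding transcript. In D-gal, Col1a2 (204.2) was above Col5a2 (174.9) in CPM per kb of the main coding transcript and below it in FPKM (68.1 against 116.0). Col27a1 and Col2a1 were level per kb of the main transcript (6.067 and 6.003), whereas in FPKM Col27a1 (2.76) was below Col2a1 (4.28) and stayed in place 8 of 10 in both groups. The fold change of a gene's own level does not depend on this length.

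The members together took 0.641% ± 0.0082 of all counts in Con and 0.459% ± 0.0098 in D-gal (SD, n = 3). Within the summed level per kb, which went from 748.6 ± 10.6 to 525.2 ± 12.6 (SD, n = 3), the share of Col1a1 went from 47.7% to 41.6% and that of Col1a2 from 23.0% to 16.7%. Col5a1 took 11.4% in Con and 15.2% in D-gal, and Col5a2 14.4% and 23.0%. Col3a1 was a small part in both groups, 1.74% and 1.10%. Col27a1 went from 0.213% to 0.677%. These shares rest on the length as well: per kb of the main coding transcript, the share of Col1a1 was 36.5% in Con and 33.1% in D-gal, that of Col1a2 37.0% and 27.9%, that of Col5a1 7.97% and 11.1%, and that of Col5a2 14.5% and 23.9%. The direction of each of the 10 shares was the same with merged exons, the main transcript and FPKM. The mRNA mix of the family therefore held a larger part of type V and a smaller part of type I and III chains in D-gal, on a smaller total. These shares are a description and were not tested.

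**Figure D4:**
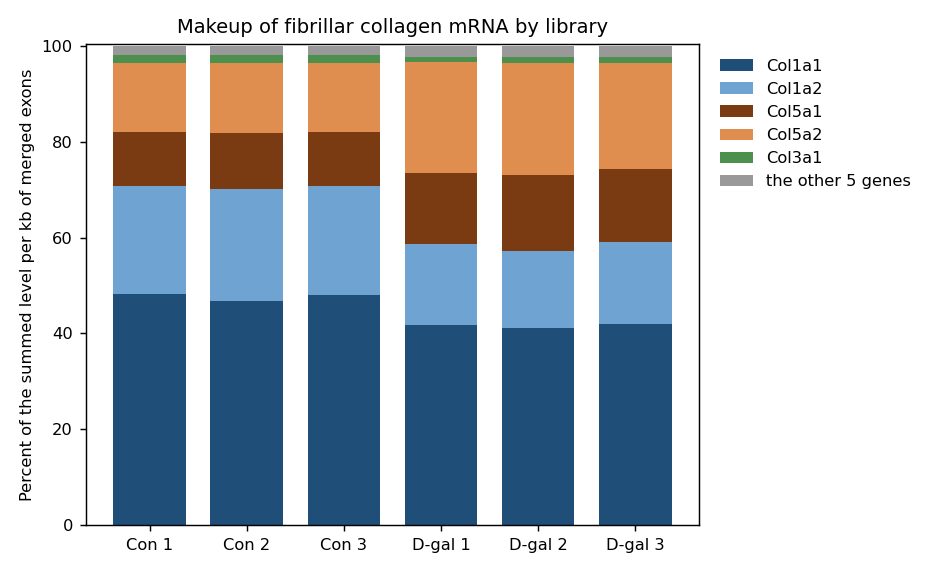
Makeup of the summed fibrillar collagen level in each library, in percent of the level per kb of merged exons. Col1a1 and Col1a2 together shrink and Col5a1 and Col5a2 grow in all 3 D-gal libraries against all 3 Con libraries, with Col5a2 at 14.4% on average in Con and 23.0% in D-gal.

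Patterns most like each member were sought among tested genes with a mean of at least 100 counts, by the root mean square difference over the 6 libraries of log2 values centred on each gene's mean. Closest to Col1a1 were Sh3pxd2b (0.0207), Lamc1 (0.0288) and Ctdspl (0.0292), and to Col1a2 Iqgap3 (0.0414), Nid1 (0.0464) and Tagln2 (0.0475). Lamc1 and Nid1 encode laminin and nidogen chains of basement membranes. Closest to Col2a1 were Lox (0.033), Nab2 (0.0343) and Timp1 (0.0383), and to Col3a1 Tspo (0.0298), Fn1 (0.0617) and Cd248 (0.066). Lox is an enzyme that crosslinks collagen, and Fn1 encodes fibronectin. For Col27a1 they were Hsph1 (0.0392), a heat shock protein, Zfhx2 (0.0451) and Ilf2 (0.0526), and for Col11a2 they were Fam120c (0.0704), Lpar6 (0.0782) and Wnt5a (0.0993). Among the other members, the small changes of Col5a1 (Phgdh, 0.0115) and Col5a2 (Afg3l2, 0.01) were matched the most closely, and the nearest genes to Col5a3 and Col11a1 were Pdap1 (0.0369) and Slc25a15 (0.0309). Within the family, the distance was 0.0922 between Col1a2 and Col2a1, 0.0984 between Col5a2 and Col11a1 and 1.17 between Col3a1 and Col27a1. With 6 libraries in 2 groups, such likeness mostly measures an equal difference between the groups.

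The proteins that process and surround fibrillar collagens were described by lists of genes. Counts below are genes past the adjusted p alone, which 16.9% of all genes tested passed higher and 17.8% lower. Among 20 tested genes that fold and modify procollagen in the endoplasmic reticulum, 5 rose and 6 fell, with a median log2 fold change of 0.0091. The smallest p-values belonged to rises of Plod2, a lysyl hydroxylase (log2 fold change 0.53, SE 0.040, adjusted p = 6.1e-05), P4ha1, a prolyl hydroxylase subunit (0.42, SE 0.039, adjusted p = 0.000154), and P3h4, which takes part in lysine modification (0.38, SE 0.034, adjusted p = 0.000123). Serpinh1, the collagen chaperone HSP47, gave no call (log2 fold change -0.27, SE 0.31, adjusted p = 0.545), with counts of 13781, 14367 and 21992 in Con and 9043, 16715 and 8129 in D-gal, which overlap. It was singled out after its values were seen. Of 9 tested genes of procollagen export, 3 fell: Sec24d, a COPII coat subunit needed for collagen cargo (log2 fold change -0.51, SE 0.039, adjusted p = 6.3e-05), Sec13 (-0.17, SE 0.041, adjusted p = 0.013) and Sar1a (-0.10, SE 0.033, adjusted p = 0.0477), and the list's median was -0.05.

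Of 12 tested genes of propeptide cleavage and crosslinking, 8 fell and 1 rose, with a median log2 fold change of -0.31. Tll1, a protease that cuts the C-propeptide, fell by 1.32 on the log2 scale (SE 0.25, adjusted p = 0.00448), at a low level of 44.4 ± 5.15 normalised counts in Con and 17.7 ± 4.6 in D-gal (SD, n = 3). Lox, at 46028 normalised counts in Con, was lower (log2 fold change -0.90, adjusted p = 1.51e-05). The 1 gene that rose was Loxl4 (log2 fold change 0.76, adjusted p = 0.000134). Lox and Loxl4 were named here after their values were seen. Among 14 tested fibril-binding proteins, 7 fell and 3 rose, with a median of -0.18. Decorin (Dcn), fibromodulin (Fmod), prolargin (Prelp) and Fn1 fell by 1.42, 1.38, 1.28 and 1.27 on the log2 scale (adjusted p = 0.000428, 5.1e-05, 0.00013 and 1.78e-06). Dermatopontin (Dpt) and asporin (Aspn) rose by 1.49 and 1.47 on the log2 scale (adjusted p = 1.78e-06 and 3.5e-06). The small leucine-rich proteoglycans that coat fibrils thus moved both ways, with Dcn, Fmod and Prelp lower and Aspn higher.

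Of 7 tested collagen receptors, 2 rose and 2 fell, with a median of 0.056. Itga1, the integrin subunit that binds collagens I and IV, rose by 1.09 on the log2 scale (SE 0.080, adjusted p = 4.95e-05). Of 11 tested genes of fibrillar collagen degradation, 8 fell and 1 rose, with a median of -0.47. Mmp16, the 1 that rose, was higher by 1.13 on the log2 scale (SE 0.29, adjusted p = 0.0179). Mmp9, a gelatinase, fell by 1.03 (SE 0.28, adjusted p = 0.022). Both were at low levels, 9.72 and 44.3 normalised counts in Con. Mmp2 and Mmp14, at 6266 and 4294, were lower (log2 fold change -0.51 and -0.47, adjusted p = 2.69e-05 and 0.000268). These 2 were named after their values were seen. This list also holds the inhibitors of these proteases, such as Timp1. Of 29 tested regulators of collagen transcription, 3 rose and 8 fell, with a median of -0.047, and only Sox9, given above, passed the fold criterion as well.

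Of 22 other tested collagen genes, 5 rose and 8 fell, with a median log2 fold change of 0.024. The summed level of the list was 6730 to 6910 CPM in Con and 7350 to 7500 in D-gal, and no gene that rose passed the fold criterion. Col15a1 and Col16a1, collagens that lie at basement membranes or on fibrils, fell by 2.67 (SE 0.32, adjusted p = 0.000507) and 1.32 (SE 0.056, adjusted p = 4.66e-06) on the log2 scale, and Col20a1 fell by 1.08 (SE 0.17, adjusted p = 0.00175). Col15a1 was at a low level of 51.7 ± 8.18 normalised counts in Con and 8.01 ± 3.45 in D-gal (SD, n = 3). Col24a1, named after its values were seen as the fibrillar collagen that the list of members left out, rose by 0.90 on the log2 scale (SE 0.23, adjusted p = 0.0174), from 31.0 ± 2.29 to 58.1 ± 15.4 normalised counts (SD, n = 3).

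Markers of contractile cells moved with the groups as well. Of 8 such genes, 7 rose and 1 (Des) fell, and their summed level was 2710 to 2800 CPM in Con and 3560 to 3910 in D-gal, with no defining marker at 0. Acta2, smooth muscle actin, rose by 0.46 on the log2 scale (SE 0.041, adjusted p = 0.000118). By Western blot, the study reported more of its protein (α-SMA) in NOR-10 cells after D-gal. How Acta2 mRNA and protein relate here was not tested. The muscle lineage genes Myod1, Myf5 and Pax7 were at 0 in every library. The part of these differences in the results on collagen genes was not tested.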

How the data were processed

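RNA-seq counts of 6 NOR-10 libraries (3 Con, 3 D-gal) were analysed. The authors deposited 1 table with a read count per gene and library, not normalised, and FPKM values, which the authors had divided by gene length and library total. Reads were checked with FastQC and trimmed with Trimmomatic according to the methods, and HISAT2 (version 2.0.4) stands in the submitters' processing notes. The counting tool and its use of strand are not given in the sources used here. The methods name a small RNA library kit and the labels an RNA-seq kit. Of the identifiers, 34267 are in GENCODE release M21 (GRCm38), 27699 with the same start and end.

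Groups came from the labels. edgeR (version 4.0.16, R 4.3.3) was run with TMM factors, filterByExpr and the quasi-likelihood test, 3 libraries against 3 with no covariate, and p-values were adjusted by Benjamini-Hochberg over 13407 genes. The thresholds, an adjusted p of 0.05 and a log2 fold change of 1, were those of the methods. Normalised counts were scaled so that every library had the mean effective size after TMM. Ratios were log2 with 0.5 counts added. Library totals and the spread between replicates set the precision, with a common biological coefficient of variation of 9.472%, and intervals cover these libraries only. Replicates of a group differed by more than the sampling noise in a chi-square test, and none was taken as a duplicate.

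Named genes were all members, genes of each list past both thresholds (otherwise the 3 smallest p-values past the adjusted p), and the 3 most alike genes. Serpinh1, Lox, Loxl4, Mmp2, Mmp14 and Col24a1 were named in their lists after their values were seen. The members and lists were chosen with earlier results of these data known. Alternatives were DESeq2 (version 1.42.0), RLE factors, other count filters, a replicate block, each replicate left out, limma (version 3.58.1) on log2(FPKM + 1) and log2(FPKM + 0.1), thinned counts, glmTreat, the adjusted p alone, and, added after the data had been seen, removal of GC and length trends and other lengths for levels and shares. Functions were tested on simulated data.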

Additional observations from a re-analysis of the deposited data

How the results depend on the processing

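Under 15 alternatives, the 10 members gave 150 log2 fold changes, of which none changed direction, 123 stayed on their side of the adjusted p of 0.05 and 27 lost the call. The 27 belonged to Col5a1, Col5a3 and Col11a1. For Col11a1 the value was 0.31 in DESeq2 (adjusted p = 0.0826), 0.32 by limma on log2(FPKM + 0.1) (adjusted p = 0.0591) and 0.30 with thinned counts (adjusted p = 0.0544). For Col5a1 it was -0.059 by limma on log2(FPKM + 1) (adjusted p = 0.126), -0.059 on log2(FPKM + 0.1) (adjusted p = 0.131) and -0.070 with GC and length trends removed (adjusted p = 0.0681). For Col5a3 it was -0.23 by limma on log2(FPKM + 1) (adjusted p = 0.0811), -0.29 on log2(FPKM + 0.1) (adjusted p = 0.0803), -0.28 with thinned counts (adjusted p = 0.0772) and -0.31 with the trends removed (adjusted p = 0.0532). With a replicate left out, the log2 fold change lay between -0.11 and -0.082 for Col5a1, between -0.44 and -0.27 for Col5a3 and between 0.24 and 0.36 for Col11a1. The cause was not tested. Differentially expressed genes numbered 120 (1 member, Col3a1) by limma on log2(FPKM + 1), 95 by glmTreat and 4661 (10 members) by the adjusted p alone, against 564 (2 members) in the report. By glmTreat 0 members passed the adjusted p, and 2 had an unadjusted p under 0.05 (Col3a1, adjusted p = 0.0671, and Col27a1, adjusted p = 0.904), which tests for a change above the fold criterion, while DESeq2 called 2 members. The level of Col1a1 over that of Col1a2 in Con, 2.07 per kb of merged exons, was 2.56 in FPKM and 0.988 per kb of the main transcript. The 11 chain ratios kept their direction throughout. Depth limits the low members, since Col11a2 had 75 to 129 reads per library.

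With the replicate number as a block, 530 genes were differentially expressed, including 2 members, and 3982 passed the adjusted p, among them 3 members higher and 4 lower. The block gave -0.094 for Col5a1 (adjusted p = 0.0511), -0.34 for Col5a3 (adjusted p = 0.0738) and 0.31 for Col11a1 (adjusted p = 0.056), and it changed no other call of a member. The deviations of libraries with the same number correlated at -0.0137, -0.00651 and 0.0259, and those of libraries with different numbers at -0.035 to 0.0428. These values cannot decide whether libraries with the same number shared a culture or a day, which the labels do not give.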
